A study of Saccharomyces cerevisiae with 22 samples.

Results

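The seripauperin (PAU), DAN and TIR genes of Saccharomyces cerevisiae encode mannoproteins and related proteins of the cell wall. The members were chosen by standard name, as genes named PAU with a number, DAN1 to DAN4 or TIR1 to TIR4. This gave 30 genes, of 5823 genes listed in polyA RNA and 18222 features listed in total RNA: 24 PAU genes, DAN1, DAN4 and TIR1 to TIR4. The names DAN2 and DAN3 are older names of PAU23 and PAU24, so those genes stand among the PAU genes. All 30 were listed in both assays.

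In budding yeast these genes are known as anaerobic genes. They are kept low in air by the repressors Rox1 and Mot3, which act with the Tup1-Cyc8 corepressor, and are switched on by the activator Upc2 when oxygen, heme or sterol is short, while TIR1 and TIR2 are also known to respond to cold. The TIR products replace the wall proteins Cwp1 and Cwp2 during anaerobic growth, and most PAU genes lie near chromosome ends in copies so alike that short reads can seldom tell them apart.

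The study measured RNA in haploid yeast strains that differ in the number of repeats of their ribosomal DNA (rDNA) array. PolyA-selected RNA came from 2 strains whose label gives low polyA recovery (104 and 166 repeats) and from 10 strains of normal recovery (72, 84, 118, 129, 147, 156, 197, 208, 224 and 237 repeats), and total RNA without polyA selection from the same 10 strains. All strains carry the genotype MATa his3d1 lyp1d0 can1d::STE2pr-spHIS5, and their names fall into 4 series: CGY20 (118, 147 and 237 repeats), CGY24 (104, 72, 129 and 156), CGY28 (166, 197, 208 and 224) and CGY29 (84). Each strain gave 1 library per assay, so the spread between strains holds the biological and the technical error together, and the labels give no growth temperature, medium, aeration or batch.

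The level used in polyA RNA is TPM, the share of a transcript among all transcripts, which corrects for transcript length but keeps no read depth. The depth of the total RNA libraries was 6495626 to 7934346 reads, with 377783 to 465428 reads outside the rDNA. In polyA RNA the MATa genes STE2, the alpha-factor receptor, and MFA1, an a-factor precursor, lay at 374 to 466 and at 4715 to 7595 TPM over the 12 libraries. The alpha-cell genes STE3 and SAG1 lay at 2.48 to 4.51 and at 9.27 to 12.4 TPM.

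The stretches upstream of TIR1, DAN1, DAN4 and PAU23 are shown because the first was the most abundant member and had none of the words searched, while the others held words known for anaerobic control. Each line runs 5′ to 3′ on the gene's own strand, from base 300 to base 101 before the start codon, in the RefSeq genome (R64, the sacCer3 sequence). The positions are chrV:174948-175147 on the plus strand for TIR1, chrX:709808-710007 on the minus strand for DAN1, chrX:715841-716040 on the minus strand for DAN4 and chrXII:223160-223359 on the minus strand for PAU23. Capitals mark the AR1 words TCGTTCAG or TCGTTTAG and the SRE word TCGTATA, on either strand.
TIR1: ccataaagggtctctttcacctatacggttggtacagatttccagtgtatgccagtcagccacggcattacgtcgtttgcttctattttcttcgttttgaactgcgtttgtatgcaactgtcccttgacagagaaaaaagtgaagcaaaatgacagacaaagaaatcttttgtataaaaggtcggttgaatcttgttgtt
DAN1: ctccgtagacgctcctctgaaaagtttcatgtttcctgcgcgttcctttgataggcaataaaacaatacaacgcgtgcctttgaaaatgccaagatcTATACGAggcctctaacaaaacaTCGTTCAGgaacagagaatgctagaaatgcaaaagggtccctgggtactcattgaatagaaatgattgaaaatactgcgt
DAN4: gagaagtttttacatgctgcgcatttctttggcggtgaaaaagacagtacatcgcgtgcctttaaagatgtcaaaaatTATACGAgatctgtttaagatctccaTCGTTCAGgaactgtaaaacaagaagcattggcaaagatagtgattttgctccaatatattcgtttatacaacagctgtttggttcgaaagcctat
PAU23: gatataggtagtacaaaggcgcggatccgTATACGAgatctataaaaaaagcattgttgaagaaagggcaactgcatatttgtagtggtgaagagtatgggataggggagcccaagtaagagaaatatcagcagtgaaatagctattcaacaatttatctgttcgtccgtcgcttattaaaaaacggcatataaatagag

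An AR1 word occurred in the 300 bases before the start codon of 12 of 30 members (40.0%) and of 1.88% of 6001 genes. The SRE word, which sterol-responsive activators are known to bind, occurred in 9 of 30 members (30.0%) and 4.62% of genes. The word ATTGTTC of the repressor Rox1 occurred in 4 of 30 (13.3%) and 7.43%. None of the words overlapped another in the stretches shown. DAN1 and DAN4 held both an AR1 and an SRE word, at 180 and 203 bases before the start codon in DAN1 and at 196 and 222 in DAN4. PAU23 held the SRE word at 271. TIR4 held an AR1 word, TIR2 and TIR3 held the Rox1 word, and TIR1 held none of them. A match is only a run of letters and no proof of a binding site, and its absence says only that these letters are not in the window.

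Most of the family was low. In the 10 libraries of normal recovery 16 of 30 members averaged at least 1 TPM, against 95.2% of all genes, and TIR1 alone averaged at least 10 TPM. The 16 were 11 of 24 PAU genes, DAN4 and all 4 TIR genes. The median over the 5542 genes that averaged at least 1 TPM was 23.5 TPM, above every member except TIR1. Among all genes listed TIR1 ranked 2337 of 5823. PAU23, the second member, ranked 4378, and DAN1 ranked 5709.

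**Figure D1:**
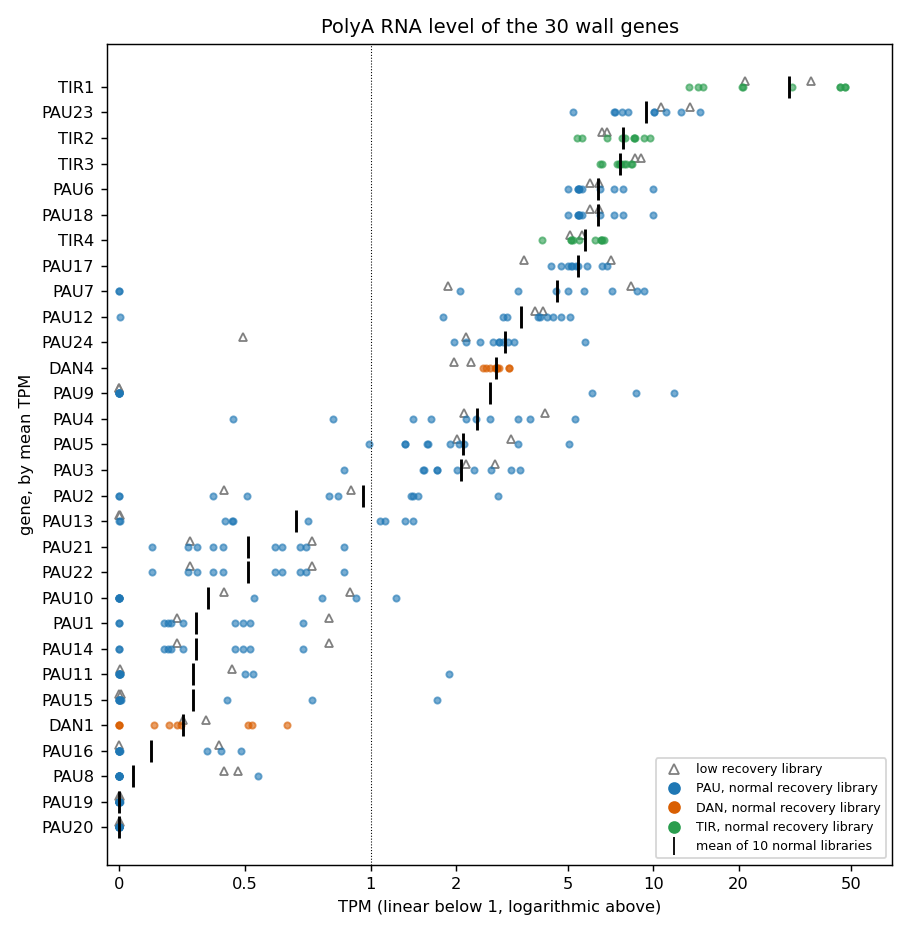
Level of each of the 30 genes in polyA RNA, in TPM, with 1 row per gene by falling mean; triangles are the 2 low recovery libraries, circles the 10 normal recovery libraries and the black bar their mean. TIR1 lies furthest right, and 14 of 30 genes have a mean left of the dotted line at 1 TPM.

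Each of the 4 TIR genes was above 0 in all 10 strains. TIR1, a wall mannoprotein needed for anaerobic growth, averaged 30.1 ± 15.0 TPM (SD, n = 10). TIR2, its closest relative with 75.9% of coding bases shared, averaged 7.81 ± 1.46 TPM, and TIR3 averaged 7.58 ± 0.65 TPM. TIR4, whose product is like those of TIR1 and TIR3 required for growth without oxygen, averaged 5.74 ± 0.89 TPM. The means of TIR2 and TIR3 differed by less than their SD. TIR1 made up 55.5% of the summed TIR level on average.

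By rising repeat number, from 72 to 237, TIR1 lay at 45.8, 14.9, 47.5, 45.5, 13.4, 20.7, 47.6, 20.54, 30.8 and 14.4 TPM. The strains with 72, 118, 129 and 197 repeats lay within 45.5 to 47.6 TPM, those with 84, 147, 156, 208 and 237 lay within 13.4 to 20.7 TPM, and the strain with 224 lay between. High and low strains occurred in each of CGY20, CGY24 and CGY28. The highest value was 3.56 times the lowest. In a bulk culture, a change in the number of cells that express a gene and a change in RNA per cell cannot be told apart.

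TIR2 lay at 7.74, 5.38, 5.57, 8.58, 8.51, 9.27, 8.53, 9.74, 7.95 and 6.87 TPM in the same order of strains. TIR3 lay at 7.86, 6.46, 8.02, 7.60, 7.54, 6.56, 8.40, 7.66, 7.41 and 8.32 TPM. TIR4 lay at 5.10, 6.22, 4.03, 5.13, 6.51, 5.47, 6.58, 6.53, 6.69 and 5.19 TPM. The 4 strains highest in TIR1 were spread over 5.57 to 8.58 TPM in TIR2 and 4.03 to 6.58 TPM in TIR4, and lay at 7.60 to 8.40 TPM in TIR3. In the strain with 118 repeats TIR4 had its lowest value, where TIR1 was 47.5 TPM.

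The DAN genes were low, although their sequence is their own. DAN4, a large wall mannoprotein made in anaerobic cells, averaged 2.78 ± 0.20 TPM (SD, n = 10), with 3.09, 2.64, 2.55, 2.78, 2.49, 2.76, 2.79, 2.84, 3.09 and 2.80 TPM by rising repeat number. No strain stood apart. DAN1, the gene after which the family of delayed anaerobic genes is named, averaged 0.25 ± 0.24 TPM, was at 0 in the strains with 84, 147 and 208 repeats and reached 0.67 TPM at most. DAN1 and DAN4 lie on the same arm of chromosome X, and both carry an AR1 and an SRE word.

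PAU genes differed from the DAN and TIR genes in how much of their sequence is their own. The median share of 31-base words found in no other coding sequence was 17.9% over the 24 PAU genes, against 100% for DAN genes, 99.1% for TIR genes and 100% over all 6008 coding sequences. The words were shared within the family: 0 genes outside the 30 shared such a word with a member, and 0 coding sequences of other genes overlapped one. Coding sequences of PAU pairs were 84.5% identical in the median over 276 pairs, and 3 pairs were identical throughout (PAU6 and PAU18, PAU21 and PAU22, PAU1 and PAU14).

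The first 90 coding bases of 6 PAU genes are shown to make that likeness visible, 5′ to 3′, with capitals where a base differs from PAU6. The genes lie on chromosome XIV (PAU6), XII (PAU18), X (PAU1), IX (PAU14), XV (PAU20) and VII (PAU12).
PAU6: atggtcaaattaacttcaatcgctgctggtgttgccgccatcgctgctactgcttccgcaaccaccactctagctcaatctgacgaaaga
PAU18: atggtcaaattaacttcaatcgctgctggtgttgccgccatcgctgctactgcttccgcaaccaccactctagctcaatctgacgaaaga
PAU1: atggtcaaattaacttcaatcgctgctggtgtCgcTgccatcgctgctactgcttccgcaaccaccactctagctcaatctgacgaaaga
PAU14: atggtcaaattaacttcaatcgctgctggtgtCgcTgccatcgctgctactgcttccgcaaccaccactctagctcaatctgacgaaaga
PAU20: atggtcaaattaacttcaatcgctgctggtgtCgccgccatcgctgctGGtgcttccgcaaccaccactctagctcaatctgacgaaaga
PAU12: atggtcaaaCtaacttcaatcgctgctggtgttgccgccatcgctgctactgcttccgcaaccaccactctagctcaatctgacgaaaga
PAU1 and PAU14 differed from PAU6 at 2 of these bases, PAU20 at 3 and PAU12 at 1. PAU6 and PAU18 held the same value in every library, as did the other identical pairs, so a value of 6.37 ± 1.56 TPM (SD, n = 10) for PAU6 and for PAU18 belongs to the pair and not to either gene. The pair's upstream stretches differ: PAU18 held an AR1 word within 300 bases and PAU6 did not. Values of near-identical genes such as PAU20 and PAU12 depend on how reads were shared out and are uncertain.

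PAU23, on chromosome XII away from the chromosome ends, was the PAU gene with the highest mean, 9.39 ± 2.82 TPM (SD, n = 10). It lay at 10.1, 10.0, 12.5, 8.13, 7.29, 5.21, 11.1, 7.27, 14.6 and 7.72 TPM by rising repeat number, highest with 224 repeats and lowest with 156. The pair PAU6 and PAU18 lay at 4.99, 5.57, 7.78, 5.44, 7.26, 6.46, 9.98, 5.42, 5.40 and 5.43 TPM, highest with 197 repeats. PAU17, whose closest relative is PAU23 at 93.9% identity, lay at 6.85, 4.33, 5.80, 5.42, 4.99, 6.60, 5.09, 4.70, 5.17 and 5.31 TPM. These 4 genes had the highest means among the PAU genes.

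Among the next PAU genes, PAU7, PAU9 and PAU12 were listed at or near 0 in 1 or more strains. PAU7, a short gene of 168 coding bases, averaged 4.57 TPM and was at 0 in the strains with 197 and 224 repeats, while the strain with 208 repeats, also of series CGY28, had 9.22 TPM. PAU9, of 129 coding bases and with no 31-base word of its own, was above 0 in 3 of 10 strains, at 6.04 TPM with 72 repeats, 8.67 TPM with 118 and 11.8 TPM with 197. PAU12 was near 0 in the strain with 72 repeats and at 1.81 to 5.08 TPM in the other 9. PAU24, PAU4, PAU5 and PAU3 averaged 2.99, 2.38, 2.13 and 2.09 TPM and were above 0 in every strain. Since a zero in an estimated TPM can come from sharing out reads among copies, these genes are only listed at 0 there. PAU7 has 81.2% of its 31-base words to itself and PAU12 9.31%, and whether their zeros come from sharing out reads was not tested. PAU7 and PAU9 are short, and TPM do not show how many reads their values rest on.

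The remaining 13 PAU genes averaged under 1 TPM. PAU2, PAU13, PAU21 and PAU22 averaged 0.51 to 0.97 TPM. PAU10, PAU14, PAU1, PAU11 and PAU15 averaged 0.29 to 0.35 TPM, and PAU16 and PAU8 averaged 0.12 and 0.06 TPM. PAU19 and PAU20 stayed below 0.01 TPM in all 10 libraries. Of 19 PAU genes within 20 kb of a chromosome end 7 averaged at least 1 TPM, as did 4 of 5 PAU genes further in. The 7 count the identical pair PAU6 and PAU18 as separate genes. The 5 further in had 50.8% to 89.7% of their 31-base words to themselves, against 0 to 37.1% near the ends. Position and uniqueness can therefore not be told apart here.

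**Figure D2:**
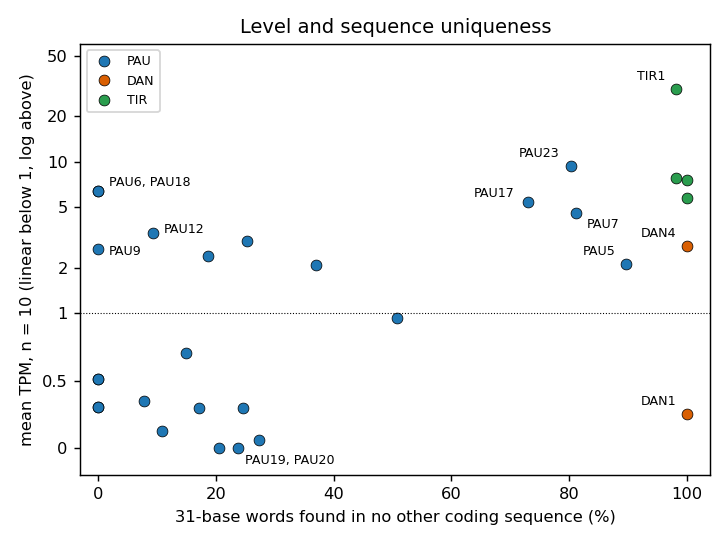
Mean TPM over the 10 normal recovery libraries against the percentage of a gene's 31-base words that occur in no other coding sequence, 1 point per gene (identical pairs lie on top of each other). DAN and TIR genes and 4 PAU genes (PAU5, PAU7, PAU17 and PAU23) lie above 70%, and the other PAU genes lie lower, at any level.

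Summed over members, the PAU genes held 52.2 ± 9.7 TPM, the TIR genes 51.3 ± 15.1 TPM and the DAN genes 3.03 ± 0.32 TPM (SD, n = 10). Counting each set of equal values once lowered the PAU sum to 45.0 TPM. The PAU sum ranged from 43.7 to 69.8 TPM and the TIR sum from 33.0 to 71.2 TPM over strains.

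Over members the median spread between strains was wider than over all genes, but single members differed greatly. The SD of log2(TPM + 1) over the 10 strains had a median of 0.34 over the 16 members tested and 0.14 over all 5542 genes tested. Low genes vary more, and among genes of 1 to 10 TPM the median was 0.32 over 15 members and 0.18 over all 1243 genes. This band was not matched for gene length or shared sequence, and PAU6 and PAU18, with equal values, were both counted. The SD of a PAU gene with few words of its own can also hold error from sharing out reads. PAU9 and PAU7 had an SD of 1.59 and 1.23. TIR1 had 0.75, above 98.9% of genes tested, and ranked 13 of 4299 genes with at least 10 TPM. DAN4, with 0.08, lay above only 6.87% of genes, and TIR3, with 0.11, above 30.6%.

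In total RNA TIR1 gave 129 reads over the 10 total RNA libraries, with 25, 10, 20, 24, 2, 6, 13, 9, 12 and 8 reads by rising repeat number. The strain with 147 repeats had 2 reads, with an exact 95% Poisson interval of 0.242 to 7.22, and the strain with 72 repeats had 25 reads, with 16.2 to 36.9. These are the lowest and highest of the 10 libraries, picked for that, and the intervals cover counting error only. In size-factor scaled reads, TIR1 averaged 12.6 ± 7.4 (SD, n = 10).

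**Figure D3:**
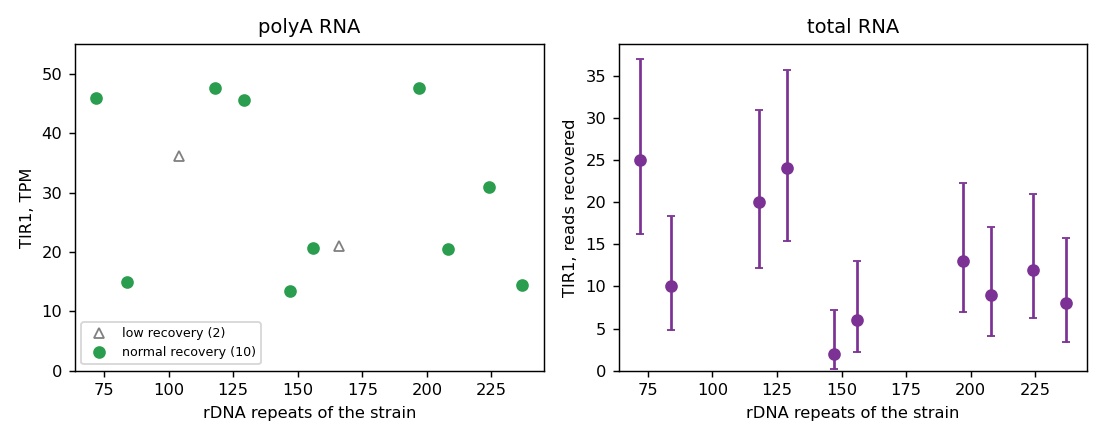
TIR1 against the rDNA repeat number of each strain, in TPM in polyA RNA (left; triangles are the 2 low recovery libraries, circles the 10 normal ones) and in recovered reads in total RNA (right, with exact 95% Poisson intervals). Strains with 72, 118 and 129 repeats are high in both panels and the strain with 147 repeats is lowest in both.

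The level of TIR1 in a strain's polyA library went with that in its total RNA library. Over 10 strains Pearson's r was 0.86 on log2(value + 1), with a permutation p of 0.00035 and a Benjamini-Hochberg adjusted p of 0.0441 over 3658 genes tested in both assays. Of those genes 42 passed (1.15%), and 2.13% had a higher r than TIR1, the median over all genes being 0.28. Spearman's rho was 0.79, with a permutation p of 0.0086 that did not pass the adjustment (adjusted p = 0.220). Without the strains with 118 and 197 repeats, farthest from the median, r was 0.87 with an exact permutation p of 0.00119, and with the means of the strain series subtracted it was 0.87. A series holds at most 3 of the 10 strains, too few for a value within it. The labels do not say whether both libraries of a strain came from 1 culture.

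**Figure D4:**
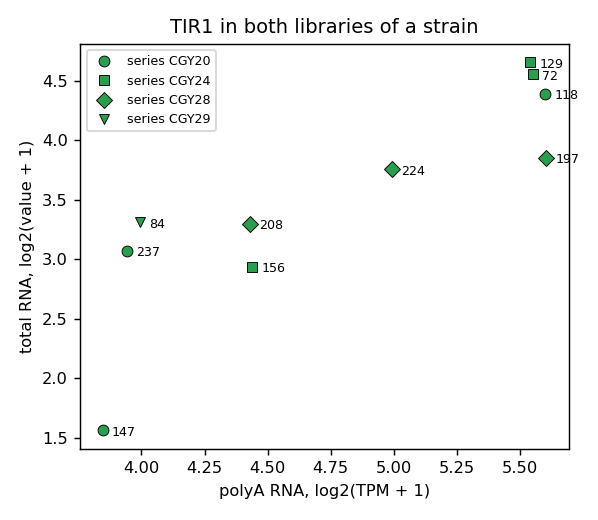
TIR1 in polyA RNA, as log2(TPM + 1), against TIR1 in total RNA, as log2(size-factor scaled reads + 1), 1 point per strain with its repeat number, shaped by strain series. The points run from 147 repeats at the lower left to 72 and 129 repeats at the upper right, with r = 0.86.

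DAN4, the other member with enough reads to test, had 141 reads over the 10 total RNA libraries, with 11, 20, 9, 10, 10, 17, 12, 21, 12 and 19 reads by rising repeat number. Its correlation between assays was 0.10 (Pearson, permutation p = 0.772) and 0.30 (Spearman, permutation p = 0.408), and 66.7% of genes had a higher r. Without the strains with 72 and 147 repeats r was 0.16 (exact permutation p = 0.712). The other members were thin: TIR3 had 44 reads in all, TIR4 32 and TIR2 26, and the 24 PAU genes together 72, counting equal rows each time. TIR4 shares a further row of 46 reads with YOR008W-B, so its total RNA level is uncertain. DAN1 had 0 reads in all 10 libraries.

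Whether a member's level followed the length of the rDNA array was tested as a linear slope in log2 units per 100 repeats, with limma over all genes. In polyA RNA 0 of 16 members and 0 of 5542 genes passed at an adjusted p of 0.05 (percent called: 0). At an unadjusted p under 0.05 there were 3 of 16 members and 5.63% of all genes. Slopes were above 0 in 10 members and below 0 in 6, with a median of 0.05 against -0.02 over all genes.

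PAU5, a PAU gene away from the chromosome ends, had the lowest p of the members, with 3.31, 2.06, 5.04, 1.59, 1.58, 2.14, 1.90, 1.32, 1.33 and 0.99 TPM by rising repeat number. Its slope was -0.57 ± 0.18 (SE; limma p = 0.00685, adjusted p = 0.759). PAU7 had a slope of -1.35 ± 0.57 (adjusted p = 0.867 by limma), with its zeros at 197 and 224 repeats. PAU24 had 0.32 ± 0.15 (adjusted p = 0.867 by limma) and PAU12 0.66 ± 0.38 (adjusted p = 0.874 by limma). The slope of PAU12 was 0.04 without the strain with 72 repeats, where it was near 0, and 1.00 without that with 84. With 1 strain left out the slope of PAU24 lay between 0.15 (without 224 repeats) and 0.42. TIR1 had a slope of -0.30 ± 0.43 (adjusted p = 0.910 by limma). It was -0.06 without the strain with 237 repeats, -0.64 without that with 84 and -1.09 with strain series as a covariate.

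In total RNA 2 members, TIR1 and DAN4, had enough reads for the same test, and 0 of the 2 passed, against 1 of 4013 features (percent called: 0.0249). At an unadjusted p under 0.05 there were 0 of 2 members and 4.68% of features. The slope was -0.45 ± 0.48 for TIR1 and 0.30 ± 0.24 for DAN4 (SE; adjusted p = 0.988 for each by limma). Leaving out 1 strain moved the slope of TIR1 to between -0.64 (without 84 repeats) and -0.18 (without 72), and that of DAN4 to between 0.21 (without 208) and 0.51 (without 84). With strain series as a covariate DAN4 had 0.78 and TIR1 -0.80. With edgeR's quasi-likelihood test on the recovered reads 3 features and with DESeq2 2 features passed, again with 0 members. The slope in polyA minus that in total RNA was 0.16 ± 0.66 for TIR1 and -0.27 ± 0.27 for DAN4, with 0 of 2 members and 0 of 3658 genes past an adjusted p of 0.05 by limma (percent called: 0) and 3.28% at an unadjusted p under 0.05.

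Strain series, which stand for separate strain lineages by name only, were compared among CGY20, CGY24 and CGY28 with 3 strains of normal recovery each. In polyA RNA 0 of 16 members passed, against 2 of 5542 genes (limma F test, adjusted p under 0.05, percent called: 0.0361), and 0 of 16 members had an unadjusted p under 0.05, against 5.05% of genes. The gap between the highest and lowest series mean had a median of 0.30 log2 units over members and 0.15 over all genes. TIR4 had the lowest p of the members (0.106 unadjusted, 0.855 adjusted, by limma): its values were 4.03, 6.51 and 5.19 TPM in CGY20, 5.10, 5.13 and 5.47 TPM in CGY24, and 6.58, 6.53 and 6.69 TPM in CGY28. The 3 CGY28 values lay little above the highest of CGY20 (6.51 TPM), and CGY20 and CGY24 overlapped. How many of all genes had a series apart in this way was not counted. TIR2, PAU17 and PAU24 followed, with gaps of 0.30, 0.28 and 0.39 log2 units (adjusted p = 0.855, 0.855 and 0.866 by limma). Without 1 strain the gap lay between 0.17 and 0.43 for TIR2 and between 0.20 and 0.54 for PAU24. TIR1 had a gap of 0.71 log2 units (adjusted p = 0.907 by limma), which was 0.40 without the strain with 147 repeats and 1.28 without that with 118. In total RNA 0 of 2 members and 0 of 4013 features passed (percent called: 0), with 0 of 2 members and 4.81% of features at an unadjusted p under 0.05. The gap was 1.04 for TIR1 and 0.32 for DAN4 (adjusted p = 0.967 and 0.976 by limma), and without 1 strain it lay between 0.41 and 1.73 for TIR1 and between 0.10 and 0.60 for DAN4.

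PAU7 depended on 1 library in that comparison. Without the strain with 208 repeats, its values in CGY28 were the zeros of the strains with 197 and 224 repeats, against 2.07 to 8.71 TPM in CGY20 and CGY24. The CGY28 strain of low recovery, with 166 repeats, which was not in the fit, had 1.87 TPM. The limma adjusted p was then 0.0282, with 6 of 5542 genes called (percent called: 0.108), against 0.885 with the strain with 208 repeats.

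The 2 libraries of low polyA recovery were set against the 10 of normal recovery. Of the members 0 of 16 passed, against 1 of 5542 genes (limma, adjusted p under 0.05, percent called: 0.018), and 2 of 16 had an unadjusted p under 0.05, against 2.8% of genes. PAU24 had 0.49 TPM with 104 repeats and 2.17 TPM with 166 repeats in the low recovery libraries, against 1.96 to 5.75 TPM (median 2.83) in those of normal recovery, so the groups overlapped. Its difference was -0.84 ± 0.26 log2 units (SE; adjusted p = 0.999 by limma), -1.39 with the strain with 104 repeats alone and -0.30 with the strain with 166 repeats alone. DAN4 had 1.97 and 2.26 TPM in the low recovery libraries, against 2.49 to 3.09 TPM (median 2.78) in those of normal recovery. Its difference was -0.28 ± 0.12 log2 units (adjusted p = 0.999 by limma). TIR3 had 9.02 and 8.57 TPM, against 6.46 to 8.40 TPM, at 0.19 ± 0.10 log2 units (adjusted p = 0.999 by limma). How many of all genes had ranges apart, as DAN4 and TIR3 did, was not counted. PAU23 had 10.6 and 13.5 TPM in the low recovery libraries, against 5.21 to 14.6 TPM in those of normal recovery, so the groups overlapped, at 0.37 ± 0.26 log2 units (adjusted p = 0.999 by limma), 0.21 with the strain with 104 repeats alone and 0.53 with that with 166 alone. TIR1 had 36.1 and 21.1 TPM in the low recovery libraries, against 13.4 to 47.6 TPM in those of normal recovery, with overlap, at 0.04 ± 0.55 log2 units (adjusted p = 0.999 by limma), 0.42 with the strain with 104 repeats alone and -0.33 with that with 166 alone.

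Known regulators and other anaerobic genes were measured in the same libraries. UPC2, the activator, averaged 7.81 ± 1.56 TPM (SD, n = 10), and ROX1, the repressor, 38.1 ± 7.7 TPM. HEM13, a heme synthesis enzyme that Rox1 represses, averaged 59.6 ± 6.6 TPM, and ANB1, the hypoxic form of translation factor eIF5A, 12.3 ± 3.5 TPM. TIP1, a wall mannoprotein of the same kind that is made in air, averaged 338.7 ± 78.5 TPM, above every member. UPC2 lay at 5.42 to 10.2 TPM over the 10 strains.

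The genes whose level was most like that of TIR1 over the 10 strains were looked for among the 5541 other genes tested in polyA RNA, a comparison chosen after the values of TIR1 were seen. No gene passed: 0 of 5541 had an adjusted permutation p under 0.05 by Pearson's r (percent called: 0) or by Spearman's rho, and 250 had an unadjusted Pearson p under 0.05. The lowest adjusted p was 0.633 for Pearson's r and 0.718 for Spearman's rho. The values below are therefore a description of likeness. TIR1 and several of these genes fell into separate high and low stretches of fewer than 6 strains each, so no relation within a stretch could be tested and r rests on which strains were high.

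The 10 genes with the highest r were YHB1 (0.95), ATF2 (0.94), TOM71 (0.92), ERG28 (0.91), PEP7 (0.91), ELP4 (0.90), LDB19 (0.90), HES1 (0.89), ERG3 (0.87) and HMG1 (0.86). With TPM rescaled by edgeR's TMM factors, r was 0.62 for TOM71, 0.76 for LDB19 and 0.81 for ELP4. In the others it then lay between 0.82 (HMG1) and 0.95 (YHB1). TOM71 varied little, from 31.9 to 37.7 TPM, so its place depends on the scaling. For YHB1 the permutation p was 0.00041 (adjusted p = 0.633), and Spearman's rho was 0.89 (permutation p = 0.00133, adjusted p = 0.718). Its r was 0.94 without the strains with 118 and 197 repeats (exact permutation p = 0.00131) and 0.93 with series means subtracted. YHB1 was picked for the highest r in these same strains, so the unadjusted p and the values on fewer strains are no separate support. YHB1 encodes the flavohemoglobin that detoxifies nitric oxide, ATF2 an alcohol acetyltransferase that also acetylates sterols, and TOM71 a mitochondrial import receptor. ERG28 encodes a scaffold of sterol synthesis enzymes, ERG3 a sterol desaturase, HMG1 an HMG-CoA reductase and HES1 an oxysterol-binding protein homologue. PEP7, ELP4 and LDB19 are left without a description here, and no shared function of the 10 genes was tested. Over a list of 19 anaerobic and sterol genes, r was above 0 in 13, a share like that of all genes, of which 69.8% had an r above 0. The median was 0.38 against 0.15 over all genes, and 0 of 19 passed. Within it ERG5, ERG25, ERG11 and ERG2 had 0.85, 0.84, 0.82 and 0.78, while OLE1, the fatty acid desaturase, had -0.62.

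ERG3 lay at 577.0, 321.7, 585.3, 661.1, 389.1, 383.2, 673.2, 411.0, 739.8 and 395.4 TPM by rising repeat number. The 5 highest strains were those with 72, 118, 129, 197 and 224 repeats, which were also the 5 highest in TIR1. HES1 lay at 4.12, 2.16, 5.58, 4.71, 2.41, 1.97, 4.80, 1.96, 4.32 and 2.56 TPM, high in the same 5 strains. UPC2 had an r of 0.71, and the regulators lay on both sides of 0, with 5 of the 8 regulators above it against the 69.8% of all genes. ROX1 had -0.21. HEM13 had 0.38, ANB1 -0.29 and TIP1 -0.44.

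**Figure D5:**
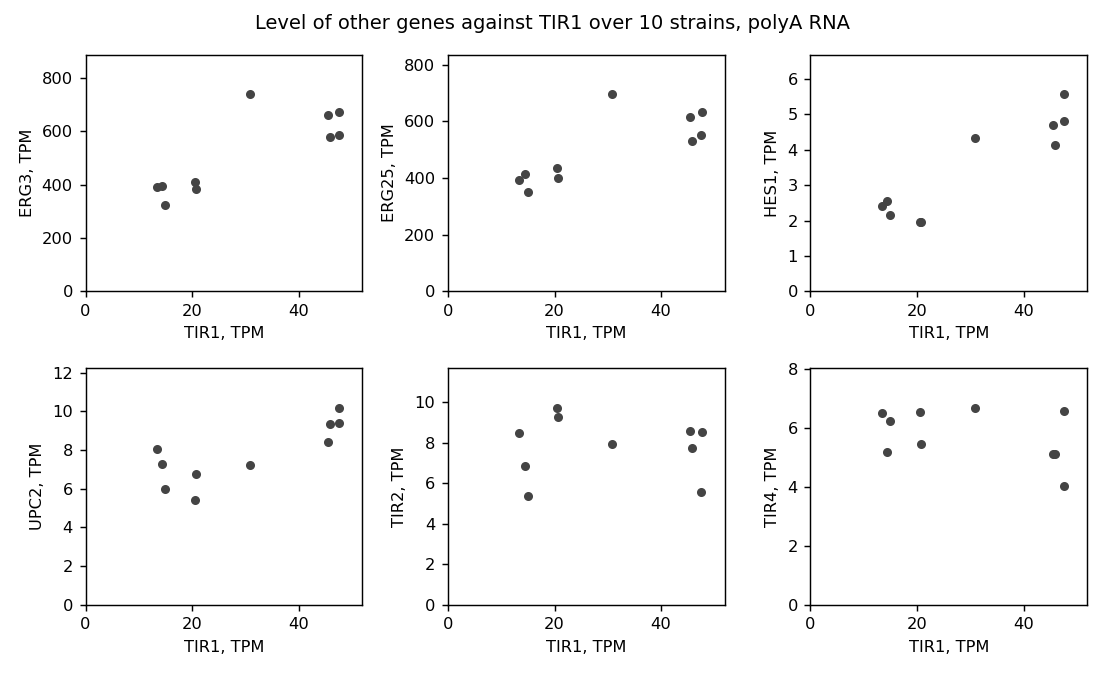
TPM of ERG3, ERG25, HES1, UPC2, TIR2 and TIR4 against TPM of TIR1 in polyA RNA, 1 point per strain of normal recovery (n = 10). In the upper row the 5 strains highest in TIR1 lie above the other 5, while TIR2 and TIR4 show no such order.

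The likeness was looked at again with TIR1 read in the other assay. Several of the genes below were picked for a high r with TIR1 in polyA RNA. TIR1 itself correlated at 0.86 between the assays. A positive r was therefore largely fixed beforehand and is no separate support. TIR1 in total RNA against the gene in polyA RNA gave an r of 0.78 for YHB1, 0.78 for ATF2 and 0.68 for ERG3. It was 0.68 for ERG25, 0.75 for ERG11, 0.91 for ELP4 and 0.42 for UPC2. With both genes in total RNA, r was 0.70 for YHB1, 0.61 for ATF2, 0.69 for ERG3 and 0.75 for ERG25. For ERG11 it was 0.84, for UPC2 0.60 and for ELP4 -0.50. Over the other 15 members tested r ranged from -0.48 (PAU3) to 0.73 (PAU9), with 10 above 0 and a median of 0.25, against 69.8% above 0 and a median of 0.15 over all genes, and 0 of 15 passed the adjustment. TIR2 had 0.04, TIR3 0.43 and TIR4 -0.40. With series means subtracted r was -0.81 for TIR2, 0.59 for TIR3 and -0.73 for TIR4. A series holds too few strains for a value within it, and how many of all genes moved as far was not counted. No relation of TIR1 to TIR2 or TIR4 can be read from these values.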

How the data were processed

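RNA of haploid yeast strains was measured as polyA-selected RNA (2 libraries of low and 10 of normal polyA recovery) and as total RNA (10 libraries), with 1 library per strain and assay. Per the submitters' processing notes, the tools were bcl2fastq, Salmon 0.8.1 and DESeq2, on the sacCer3 build. The authors deposited TPM for polyA RNA, which keep no depth, and for total RNA a signal that is read counts divided by a size factor: 100% of values were whole multiples of a library's smallest value within 0.001. These reads were recovered for depth, for Poisson intervals and for the count tests. Genes were matched to RefSeq (R64) by systematic name. Sequence words of 31 bases were compared between RefSeq coding sequences.

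Tests ran on log2(TPM + 1) over the 5542 genes that averaged 1 TPM or more, and on log2(value + 1) over 4013 total RNA features that pass edgeR's expression filter, leaving out 58 rDNA features, with limma 3.58.1 (R 4.3.3, trend and robust moderation), two-sided, with Benjamini-Hochberg adjustment at 0.05. This scale understates changes of low genes. Of the members 16 and 2 entered. Limma was used for total RNA because the values are scaled, and edgeR 4.0.16 and DESeq2 1.42.0 ran on the recovered reads as alternatives. Scripts were tested on simulated data. Correlations used 100000 permutations, or all of them with under 10 strains. Both libraries of a strain were paired by its rDNA repeat number, which no other strain shares. Their deviations from each gene's mean correlated over genes at 0.142 to 0.516 in the 10 strains. In all 10 strains the own pair had a higher r than any other, by little with 237 repeats (0.162 against 0.155).

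The members and lists were chosen with earlier results of these data known. Values are given for the 4 PAU genes of highest mean, each DAN and TIR gene of at least 1 TPM and any member past a test, and tests for the 4 members of lowest p per comparison and for TIR1; DAN1 and the other named PAU genes were added after their values were seen.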

Additional observations from a re-analysis of the deposited data

Results flagged for a closer look

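Each tested member's values over the 10 strains, in polyA RNA and, for TIR1 and DAN4, in total RNA, and the 3 family sums were screened for a strain far from the others. Of 21 such groups 1 had a strain apart, which is what chance gives in about 1 of 20. PAU24 was at 5.75 TPM in polyA RNA of the strain with 224 repeats, and the nearest of the other 9 strains was at 3.20 TPM, a gap of 0.673 of the whole range. PAU24 has 25.2% of its 31-base words to itself and is 98.9% identical to PAU12, which was at 5.08 TPM in that strain, its own highest value.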

How the results depend on the processing

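The number of members past an adjusted p of 0.05 was 0 in all 6 comparisons, and in 65 of 66 alternatives. The exception was the polyA strain series without replicate 8 (208 repeats), where the members called numbered 1 (PAU7, limma adjusted p = 0.0282); leaving out the other strains gave 0, so the range was 0 to 1. TIR1 in the low recovery comparison had 0.04 log2 units, and -0.033 with repeat number as a covariate, -0.33 without the library with 104 repeats and 0.42 without that with 166, never past the threshold. For the correlation of TIR1 between assays, Spearman's rho was 0.79 and no longer passed (adjusted p = 0.220). With the replicate block, which pairs both libraries of a strain, 0 members and 0 of 3658 genes passed in the interaction, as without it, and 174 genes against 120 had an unadjusted p under 0.05.

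Over all genes, calls numbered 1 in the total RNA trend and 4 without the filter, 3 with edgeR, 2 with DESeq2, 0 with strain series as a covariate and 0 to 2 without 1 strain (0 without that with 72 repeats). They numbered 0 in the polyA trend and 1 without the strain with 197 or with 237 repeats, 0 in the total RNA series and 7 without the filter or up to 3 without 1 strain, 2 in the polyA series and up to 6 without 1 strain, and 1 in the low recovery comparison and 0 to 2 in its alternatives. Counting equal values once gave 45.0 TPM for the PAU sum. The SD of TIR1 was 0.71 to 0.79 when each strain was left out. Total RNA held too few reads of 28 members for a test.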
